A study of Mus musculus with 20 samples.

Results

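The nuclear receptors are transcription factors that bind small fat-soluble molecules such as steroids, thyroid hormone, retinoids, fatty acids and oxysterols, or, in the so-called orphan members, have no settled ligand. Many of them bind DNA as a heterodimer with a retinoid X receptor (RXR), while steroid receptors act mostly as homodimers. Without an activating ligand a receptor can hold corepressors such as NCoR1 at its target genes, and with a ligand it exchanges them for coactivators such as PGC-1alpha, so that both proteins work through many of the same receptors. In skeletal muscle the family is known for setting fuel use, contractile protein isoforms and the response to hormones. The members described here were a list of 41 mouse nuclear receptor genes, taken as a family by name, without the estrogen-related receptors and Nr1d1 and Nr1d2. They and the gene lists used below were chosen with earlier results of these data known. Of the 41, 39 were measured, each by 1 probe set, among 19938 genes. Nr1h2 and Nr2e3 were not analysed here.

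Messenger RNA was profiled on 20 Affymetrix arrays in the gastrocnemius, the large calf muscle, of adult male mice of the C57BL/6 strain. NCoR1-MKO mice carry a knockout of the nuclear receptor corepressor NCoR1 in muscle, and their controls are labelled CON. PGC-1alpha-mTg mice carry a muscle transgene for the coactivator PGC-1alpha, and their controls are labelled WT, wild type. Each of the 4 groups held 5 arrays. Neither the genotype of the CON mice nor the promoter behind the transgene or the knockout is given in the sources used here, and neither is the age beyond adult. The series sets the loss of a corepressor beside the gain of a coactivator of the same receptors, and each model is compared here with its own controls. The labels do not state that every array is a different mouse, so the p-values measure the spread between these samples, which may be technical.

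All values are log2 expression values, in which a difference of 1 is a doubling, and changes are given as log2 fold changes ± standard error (SE) from limma, with p-values adjusted by the Benjamini-Hochberg method over the 19938 genes. A gene is said to have risen or fallen only at an adjusted p under 0.05. Array medians lay between 6.03 and 6.08 in NCoR1-MKO and CON and between 5.84 and 5.91 in PGC-1alpha-mTg and WT, and the cohorts appear to have been normalized apart, so no level is compared between them. The probe set used for Ppargc1a, the gene of PGC-1alpha, averaged 11.42 ± 0.08 in PGC-1alpha-mTg and 9.59 ± 0.14 in WT (SD, n = 5 each). A dimmer second probe set of the gene averaged 7.08 ± 0.23 in PGC-1alpha-mTg and 8.08 ± 0.13 in WT. Ncor1 was not analysed here, so the knockout label was not checked. Limma called 2.63% of all genes in NCoR1-MKO against CON and 28.0% in PGC-1alpha-mTg against WT.

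Among the receptor genes, changes were called in PGC-1alpha-mTg far more often than in NCoR1-MKO, as they were among all genes. In PGC-1alpha-mTg against WT, 15 of 39 members passed the test, 5 higher and 10 lower. Pparg, Ppara, Nr1h3, Rxrb and Nr2f1 rose, and Rora, Rxrg, Nr4a1, Nr6a1, Rxra, Nr3c1, Thra, Rarb, Esr1 and Nr2c2 fell. That is 38.5% of the members, against 28.0% of all genes. By direction it is 12.8% higher against 11.9% of all genes, and 25.6% lower against 16.1%. In NCoR1-MKO against CON, 1 of 39 members passed, which is 2.56% and close to the 2.63% of all genes (1.31% higher and 1.32% lower). This was Rora, which fell, so it was the single receptor called in both models, though 1 of the other settings tried ended its call in NCoR1-MKO. The median change of the members was 0.01 in NCoR1-MKO and 0.03 in PGC-1alpha-mTg, against 0.001 and 0.02 over all genes.

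**Figure D1:**
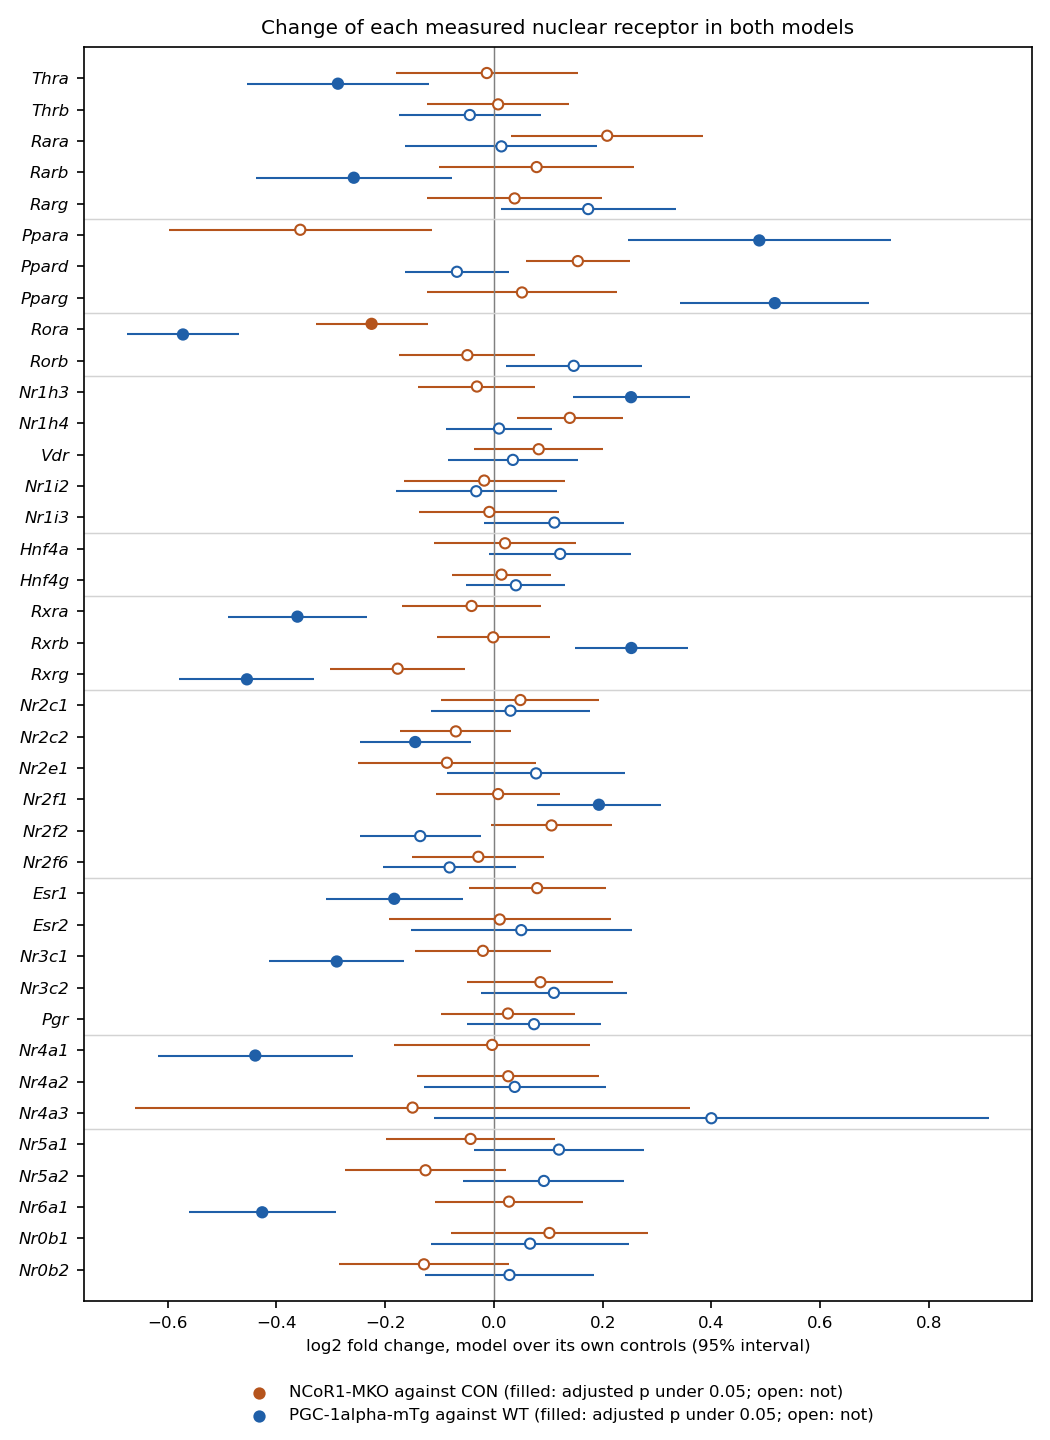
Log2 fold change of each of the 39 measured receptors (rows, grouped by role) in NCoR1-MKO against CON and in PGC-1alpha-mTg against WT (x axis), with 95% intervals from limma and filled points at an adjusted p under 0.05. Rora is filled in both models, and in PGC-1alpha-mTg 5 points are filled right of 0 and 10 left of it.

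Many receptors of this family belong to liver, gut, gonad or brain, and 13 of the 39 lay among the dimmest 40% of genes by their mean over all arrays. Among these 13 the transgenic comparison called 1, Nr2f1, which is 7.69% against 6.64% of all genes that dim. The knockout comparison called none, against 0.276%, with 1 at an unadjusted p under 0.05 by limma. Of the 26 brighter members, 14 were called in PGC-1alpha-mTg, or 53.8% against 42.2% of the genes of that brightness. The corresponding share in NCoR1-MKO was 3.85%, 1 of 26, against 4.20%. By direction, 15.4% of the brighter members rose in PGC-1alpha-mTg, against 16.4% of such genes, and 38.5% fell, against 25.7%. Shares of all genes given below for the gene lists are not matched for brightness unless stated. Groups without any overlap of their 5 arrays gave a similar picture. In PGC-1alpha-mTg, 4 members lay wholly above WT (Pparg, Nr1h3, Rxrb and Nr2f1, 10.3% against 8.72% of all genes) and 6 wholly below (Rora, Rxra, Rxrg, Nr3c1, Nr4a1 and Nr6a1, 15.4% against 11.2%). In NCoR1-MKO, Nr1h4 lay wholly above CON (2.56% against 2.21% of all genes), and Ppara and Rora wholly below (5.13% against 1.96%).

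Rora encodes RORalpha, an orphan receptor that binds DNA as a monomer and activates clock genes such as Arntl at sites that the REV-ERB repressors also use. Rora (probe set 10586700) stood at 10.02, 10.03, 10.18, 10.24 and 10.06 in NCoR1-MKO, against 10.37, 10.31, 10.37, 10.25 and 10.36 in CON. The highest NCoR1-MKO array lay just under the lowest CON array, so the groups did not overlap. In PGC-1alpha-mTg it stood at 9.34, 9.23, 9.31, 9.31 and 9.38, against 9.78, 9.94, 9.96, 9.86 and 9.89 in WT, and here the gap between the groups was wider than the range within either. The fall was 1.49-fold with the transgene, at −0.57 ± 0.05 (adjusted p = 5.58e-09). In NCoR1-MKO the change was −0.23 ± 0.05 (adjusted p = 0.0118), 1.17-fold lower. That call held in all 20 fits that left out an array (adjusted p up to 0.0431) and in 7 of 8 other settings. Leaving out a PGC-1alpha-mTg or WT array keeps this change as it is and alters only its error and p-value. The effect in PGC-1alpha-mTg minus that in NCoR1-MKO was −0.35 ± 0.07 (adjusted p = 0.00115). Rorb, the brain and retina form, did not pass, at −0.05 ± 0.06 in NCoR1-MKO and 0.15 ± 0.06 in PGC-1alpha-mTg (adjusted p = 0.0757).

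The RefSeq promoter window of Rora, the 300 bases around its annotated start (chr9:68653536-68653835, plus strand, GRCm38.p6), is shown because this was the receptor called in both models. It was searched on both strands for AGGTCA, the core hexamer of nuclear receptor sites, and for TGACG, the core of a cyclic AMP response element. It was also searched for AAGGTCA, the hexamer extended by an A, as used by estrogen-related receptors. None of these letters is in this window.
Rora: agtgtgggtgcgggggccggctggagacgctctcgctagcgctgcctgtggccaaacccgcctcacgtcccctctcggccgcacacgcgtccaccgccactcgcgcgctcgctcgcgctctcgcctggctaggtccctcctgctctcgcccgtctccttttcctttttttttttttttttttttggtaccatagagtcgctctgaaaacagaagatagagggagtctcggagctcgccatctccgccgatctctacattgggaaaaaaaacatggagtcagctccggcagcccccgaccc

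The peroxisome proliferator-activated receptors (PPARs) sense fatty acids and drive genes of fat uptake, storage and oxidation, and their gamma form gave PGC-1 its name. Ppara (probe set 10425987), the form that governs fatty acid oxidation, stood at 8.09, 7.97, 8.01, 8.22 and 8.11 in NCoR1-MKO, against 8.38, 8.62, 8.39, 8.28 and 8.51 in CON. All NCoR1-MKO arrays lay below all CON arrays, yet the change of −0.36 ± 0.12 did not pass the test over all genes (adjusted p = 0.127). Fitted to these 10 arrays alone, the same change passed (adjusted p = 0.0120). In PGC-1alpha-mTg it stood at 8.33, 8.48, 8.25, 8.67 and 8.91, against 7.95, 7.78, 8.05, 7.93 and 8.50 in WT. WT array 5, at 8.50, reached into the PGC-1alpha-mTg range, and the other 4 WT arrays lay below it. In the transgenic mice Ppara rose by 0.49 ± 0.12 (adjusted p = 0.00253) by limma. Its effects in the models had opposite signs and differed by 0.84 ± 0.16 (adjusted p = 0.000828), the largest difference among the 39 members.

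Pparg (probe set 10540897) encodes the receptor that directs fat cell formation. It stood at 8.19, 8.02, 8.03, 8.36 and 8.20 in PGC-1alpha-mTg, against 7.57, 7.43, 7.79, 7.79 and 7.63 in WT. Each PGC-1alpha-mTg array exceeded each WT array, and Pparg rose by 0.52 ± 0.08 (adjusted p = 4.51e-05), 1.43-fold. The NCoR1-MKO arrays read 7.69, 7.84, 7.68, 7.82 and 8.05, against 7.91, 7.77, 7.62, 7.64 and 7.87 in the CON arrays, with the ranges overlapping throughout (0.05 ± 0.08, adjusted p = 0.928). The difference between the models was 0.46 ± 0.12 (adjusted p = 0.00841). Adipocyte markers moved little beside it: 1 of 6 rose in PGC-1alpha-mTg (16.7%, against 11.9% of all genes), Fabp4 by 0.33 ± 0.08. The mean of the 6 markers lay between −0.07 and 0.42 in PGC-1alpha-mTg and between −0.36 and 0.25 in WT, relative to the WT mean, and their part in the Pparg result was not tested. In such bulk muscle RNA, a change in the number of cells of a type and a change of RNA per cell cannot be told apart.

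Ppard (probe set 10443332), the PPAR best known in muscle for oxidative metabolism, passed in neither model. It stood at 10.31, 10.18, 10.19, 10.22 and 10.11 in NCoR1-MKO, against 10.06, 10.12, 10.04, 10.07 and 9.94 in CON, where NCoR1-MKO array 5 alone fell inside the CON range. In PGC-1alpha-mTg it stood at 8.67, 8.63, 8.73, 8.73 and 8.74, against 8.82, 8.80, 8.77, 8.65 and 8.80 in WT, and WT array 4 lay within the PGC-1alpha-mTg range. The changes were 0.15 ± 0.05 in NCoR1-MKO (adjusted p = 0.0816) and −0.07 ± 0.05 in PGC-1alpha-mTg (adjusted p = 0.305). Their difference passed, at −0.22 ± 0.06 (adjusted p = 0.0211). Without NCoR1-MKO array 5 the change in NCoR1-MKO was 0.18 and passed (adjusted p = 0.0464). It also passed under quantile normalization over the 20 arrays, without the dimmest 40% of genes and with a trended and robust eBayes, at an adjusted p of 0.0336 to 0.0486.

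The window of Ppara is printed because the receptor rose in PGC-1alpha-mTg and its effect differed most between the models (chr15:85735526-85735825, plus strand, GRCm38.p6). It holds 1 TGACG, in capitals, starting 222 bases before the start site, and no AGGTCA.
Ppara: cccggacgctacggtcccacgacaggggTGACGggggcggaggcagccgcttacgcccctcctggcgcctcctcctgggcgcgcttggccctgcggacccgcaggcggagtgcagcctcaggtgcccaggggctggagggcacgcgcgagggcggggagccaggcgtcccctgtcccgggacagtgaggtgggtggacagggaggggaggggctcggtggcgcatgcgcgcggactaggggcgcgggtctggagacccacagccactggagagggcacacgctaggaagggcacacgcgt

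**Figure D2:**
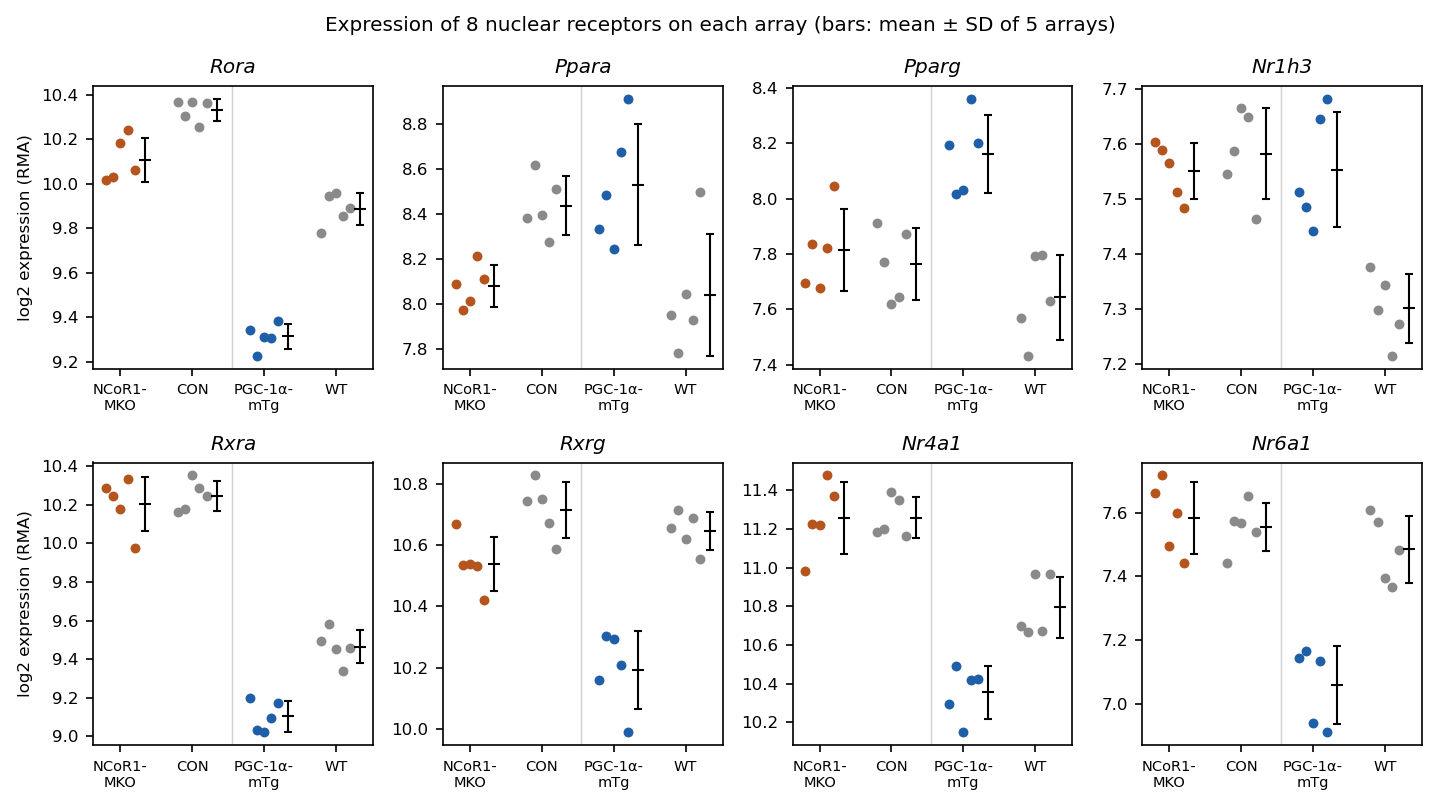
Log2 expression (y axis) of Rora, Ppara, Pparg, Nr1h3, Rxra, Rxrg, Nr4a1 and Nr6a1 on each array, with the mean and SD of the 5 arrays of each group (x axis: NCoR1-MKO, CON, PGC-1alpha-mTg, WT). Ppara is lower in all NCoR1-MKO arrays than in CON, while in the transgenic cohort WT array 5, at 8.50, lies among the PGC-1alpha-mTg arrays.

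Known PPAR target genes rose in PGC-1alpha-mTg alongside Ppara and Pparg. Of 12 measured targets 10 rose (83.3%, against 11.9% of all genes) and 1 fell (8.33%, against 16.1%). Their median was 0.57, against 0.02 over all genes. Ucp3, a mitochondrial uncoupling protein, rose by 0.95 ± 0.16 and Slc25a20, the carnitine carrier that brings fatty acids into mitochondria, by 0.93 ± 0.06. Plin5, a lipid droplet protein of oxidative tissue, rose by 0.78 ± 0.08 and the fatty acid transporter Cd36 by 0.75 ± 0.08. Plin2, another droplet coat protein, fell by 0.45 ± 0.05. The number of risen targets lay between 9 and 11 when single arrays were left out. In NCoR1-MKO, 1 of the 12 passed (8.33% higher, against 1.31% of all genes), with a list median of 0.10. It was Slc25a20, at 0.30 ± 0.06 (adjusted p = 0.00328).

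Nr1h3 (probe set 10484987) encodes the liver X receptor LXRalpha, which senses oxysterols and activates cholesterol export and fatty acid synthesis. It stood at 7.51, 7.49, 7.44, 7.65 and 7.68 in PGC-1alpha-mTg, against 7.38, 7.30, 7.34, 7.22 and 7.27 in WT. The lowest PGC-1alpha-mTg array was above the highest WT array, and Nr1h3 rose by 0.25 ± 0.05 (adjusted p = 0.000629). Its values were 7.60, 7.59, 7.57, 7.51 and 7.48 in NCoR1-MKO, against 7.55, 7.59, 7.67, 7.65 and 7.46 in CON, and these ranges coincided (−0.03 ± 0.05, adjusted p = 0.930). The difference between the models was 0.28 ± 0.07 (adjusted p = 0.00937).

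Of 10 measured LXR targets, 1 rose (10%, against 11.9% of all genes) and 4 fell (40%, against 16.1%) in PGC-1alpha-mTg, where Nr1h3 itself rose. Nr1h2, the other LXR gene, was not analysed here. The list median was 0.08, so its sign does not follow the count. Srebf1, the transcription factor of fatty acid synthesis, fell by 1.30 ± 0.11, the desaturase gene Scd2 by 0.96 ± 0.11 and the cholesterol exporter Abca1 by 0.47 ± 0.09, while Pltp, a phospholipid transfer protein, rose by 0.27 ± 0.07. Mylip, whose product degrades the LDL receptor, fell by 0.32 ± 0.11 (adjusted p = 0.0290), but missed the threshold without any of WT arrays 1, 2 and 3 or PGC-1alpha-mTg arrays 2 and 3, with an adjusted p up to 0.104. In NCoR1-MKO, where Nr1h3 did not pass, 4 of the 10 rose (40%, against 1.31% of all genes), with a list median of 0.16. Scd2 rose by 1.18 ± 0.11, Abca1 by 0.55 ± 0.09, Lpcat3, a phospholipid remodelling enzyme, by 0.44 ± 0.05 and Srebf1 by 0.43 ± 0.11. The Srebf1 rise was lost without any of 6 arrays (CON 1, 2 and 5, NCoR1-MKO 1, 2 and 4), with an adjusted p up to 0.0912. For 5 of the 10 targets (50%, against 8.50% of all genes) the effect in PGC-1alpha-mTg was lower than that in NCoR1-MKO. For none was it higher, by the test of the difference.

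The bile acid receptor gene Nr1h4 (probe set 10371784) was higher in every NCoR1-MKO array, at 4.89, 4.79, 4.82, 4.84 and 4.83, than in any CON array, at 4.60, 4.67, 4.72, 4.73 and 4.75, without passing (0.14 ± 0.05, adjusted p = 0.140). It is a liver and gut receptor, and its probe set was among the dimmest 40%. Vdr, Nr1i2 and Nr1i3, the receptors of vitamin D and of foreign compounds, did not pass in either model and were dim as well. Their changes ran from −0.03 to 0.11. Hnf4a and Hnf4g, liver and gut factors that bind fatty acids, stood at 0.02 ± 0.06 and 0.01 ± 0.04 in NCoR1-MKO and at 0.12 ± 0.06 and 0.04 ± 0.04 in PGC-1alpha-mTg, none of which passed.

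The 3 retinoid X receptors, the shared partners of PPARs, LXRs and the thyroid hormone, retinoic acid and vitamin D receptors, all changed in PGC-1alpha-mTg, and not in the same direction. Rxrg (probe set 10351430), the form typical of skeletal muscle, stood at 10.16, 10.30, 10.29, 10.21 and 9.99 in PGC-1alpha-mTg, against 10.66, 10.71, 10.62, 10.69 and 10.55 in WT. Rxra (probe set 10470446), the most widely studied form, stood at 9.20, 9.03, 9.02, 9.09 and 9.17 in PGC-1alpha-mTg, against 9.49, 9.58, 9.45, 9.34 and 9.46 in WT. In both genes the groups did not overlap: Rxrg fell by 0.45 ± 0.06 (adjusted p = 2.99e-06) and Rxra by 0.36 ± 0.06 (adjusted p = 8.35e-05). Rxrb (probe set 10444137), expressed in most tissues, stood at 7.95, 7.94, 7.88, 7.96 and 7.97 in PGC-1alpha-mTg, against 7.72, 7.78, 7.68, 7.58 and 7.67 in WT. Every PGC-1alpha-mTg array was above WT, and Rxrb rose by 0.25 ± 0.05 (adjusted p = 0.000437).

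In NCoR1-MKO none of these partners passed. Rxrg stood at 10.67, 10.54, 10.54, 10.53 and 10.42 in NCoR1-MKO, against 10.74, 10.83, 10.75, 10.67 and 10.59 in CON, with 4 of 5 NCoR1-MKO arrays below the lowest CON array (−0.18 ± 0.06, adjusted p = 0.145). Rxra stood at 10.29, 10.25, 10.18, 10.33 and 9.98 in NCoR1-MKO, against 10.16, 10.18, 10.35, 10.29 and 10.25 in CON, where NCoR1-MKO array 5 was the lowest of all (−0.04 ± 0.06, adjusted p = 0.915). Rxrb stood at 8.51, 8.53, 8.42, 8.47 and 8.30 in NCoR1-MKO, against 8.45, 8.37, 8.57, 8.39 and 8.45 in CON, and these ranges overlapped (−0.001 ± 0.05, adjusted p = 0.996). The effect of the transgene differed from that of the knockout for all 3, by −0.32 ± 0.09 for Rxra (adjusted p = 0.0137), 0.25 ± 0.07 for Rxrb (adjusted p = 0.0160) and −0.28 ± 0.08 for Rxrg (adjusted p = 0.0280). The Rxrg difference missed the threshold in 4 of 20 fits that left out an array (CON 4, CON 5, NCoR1-MKO 1 or WT 2), at −0.27 to −0.24.

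Thyroid hormone and retinoic acid receptors bind DNA with an RXR. Thra (probe set 10381006), the main thyroid hormone receptor of skeletal muscle, stood at 9.56, 9.22, 9.36, 9.33 and 9.57 in PGC-1alpha-mTg, against 9.82, 9.75, 9.71, 9.65 and 9.56 in WT. Only the lowest WT array reached the PGC-1alpha-mTg range, and Thra fell by 0.29 ± 0.08 (adjusted p = 0.00928). In NCoR1-MKO it stood at 10.61, 10.40, 10.26, 10.37 and 10.07, against 10.34, 10.32, 10.27, 10.43 and 10.41 in CON, with NCoR1-MKO arrays both above and below the CON range (−0.01 ± 0.08, adjusted p = 0.984). The difference between the models did not pass (−0.27 ± 0.11, adjusted p = 0.120), but did without NCoR1-MKO array 5 (−0.34, adjusted p = 0.0266) and with array weights (−0.32, adjusted p = 0.0376). The RefSeq spans of Thra and Nr1d1, which encodes the clock repressor REV-ERBalpha, overlap by 1075 bases. The strands of these genes were not compared and the probe positions are not known here, so whether a probe reads both was not tested. Nr1d1 rose by 0.98 ± 0.23 in NCoR1-MKO (a call lost in 5 of 20 fits that left out an array) and stood at 0.02 ± 0.23 in PGC-1alpha-mTg. Thrb, the beta form, stood at 0.01 ± 0.06 in NCoR1-MKO and −0.04 ± 0.06 in PGC-1alpha-mTg.

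Rarb (probe set 10417713), a retinoic acid receptor that retinoic acid itself induces, stood at 8.26, 7.82, 8.14, 8.30 and 8.29 in PGC-1alpha-mTg, against 8.38, 8.55, 8.35, 8.55 and 8.25 in WT. The groups overlapped and PGC-1alpha-mTg array 2 was the lowest by a clear step. Rarb fell by 0.26 ± 0.09 (adjusted p = 0.0288), yet missed the threshold without WT array 2 or 4 or PGC-1alpha-mTg array 2 or 3, with changes of −0.25 to −0.17 and an adjusted p up to 0.108. The call was also lost under quantile normalization (adjusted p = 0.0544) and in a fit to the 10 arrays alone (adjusted p = 0.0576). The NCoR1-MKO arrays read 8.07, 7.97, 8.20, 7.99 and 8.08, against 7.77, 8.01, 8.10, 7.90 and 8.14 in the CON arrays, and did not pass (0.08 ± 0.09, adjusted p = 0.858). Rara, the alpha form, stood at 7.96, 7.78, 7.73, 7.86 and 7.40 in NCoR1-MKO, against 7.34, 7.60, 7.52, 7.74 and 7.49 in CON. Array 5 was again the lowest of the NCoR1-MKO arrays, and the change of 0.21 ± 0.08 (adjusted p = 0.283) became 0.29 without it (adjusted p = 0.0310). In PGC-1alpha-mTg Rara did not pass (0.01 ± 0.08), and neither did Rarg (0.17 ± 0.08, adjusted p = 0.106), which passed without PGC-1alpha-mTg array 2 (0.25, adjusted p = 0.00736).

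Of 8 thyroid hormone targets, 1 rose (12.5%, against 11.9% of all genes) and 4 fell (50%, against 16.1%) in PGC-1alpha-mTg. The median was −0.27, and neither counts nor median take account of whether the hormone raises or lowers a target. Me1, malic enzyme, fell by 0.89 ± 0.05, Atp2a2, the slow-fibre calcium pump, by 0.61 ± 0.13 and Hr, the hairless corepressor, by 0.43 ± 0.09. The slow myosin gene Myh7 fell by 0.96 ± 0.30 (adjusted p = 0.0181), a call lost without WT array 1 or PGC-1alpha-mTg array 4. The risen target was Ucp3, which is also on the PPAR list. Atp2a2 and Myh7 are also on the slow fibre list, where 5 of 7 genes fell in PGC-1alpha-mTg. In NCoR1-MKO, 1 of the 8 rose (12.5%, against 1.31% of all genes) and 1 fell (12.5%, against 1.32%). Me1 fell by 0.27 ± 0.05, and Hr rose by 0.39 ± 0.09 (adjusted p = 0.0259). The Hr call was lost in 5 of 20 fits that left out an array (CON 1, 2 or 4, NCoR1-MKO 3 or 4). The hormone transporter gene Slc16a10 fell in PGC-1alpha-mTg by 0.34 ± 0.09 and in NCoR1-MKO by 0.39 ± 0.09, and the NCoR1-MKO call was lost without CON array 3 or NCoR1-MKO array 3, 4 or 5. No other of the 5 measured genes of thyroid hormone handling passed, so 20% of them fell in each model. Among all genes, 16.1% fell in PGC-1alpha-mTg and 1.32% in NCoR1-MKO.

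Genes that make or clear retinoids, with 10 measured, included 2 that fell in PGC-1alpha-mTg and 1 that fell in NCoR1-MKO. These shares are 20%, against 16.1% of all genes, and 10%, against 1.32%. The retinaldehyde dehydrogenase gene Aldh1a2 fell by 0.65 ± 0.12 in PGC-1alpha-mTg, and Dhrs3, which reduces retinal back to retinol, by 0.37 ± 0.10. In NCoR1-MKO it was Aldh1a1, another retinaldehyde dehydrogenase, which fell by 0.58 ± 0.10. Among 6 retinoic acid targets, Tgm2, a transglutaminase, and Dhrs3 fell in PGC-1alpha-mTg (33.3%, against 16.1% of all genes), Tgm2 by 0.41 ± 0.10. None of the 6 passed in NCoR1-MKO by limma, and none had an unadjusted p under 0.05.

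Among the orphan receptors, Nr6a1 (probe set 10482249) fell by the most in PGC-1alpha-mTg after Rora and Nr4a1. It encodes germ cell nuclear factor, known as a repressor of pluripotency genes in the embryo. Nr6a1 stood at 7.14, 7.17, 6.94, 7.14 and 6.91 in PGC-1alpha-mTg, against 7.61, 7.57, 7.39, 7.37 and 7.48 in WT, and the groups did not overlap. It fell by 0.43 ± 0.07 (adjusted p = 2.17e-05). Its values were 7.66, 7.72, 7.49, 7.60 and 7.44 in NCoR1-MKO, against 7.44, 7.57, 7.57, 7.65 and 7.54 in CON, and these ranges overlapped (0.03 ± 0.07, adjusted p = 0.957). The models differed by −0.45 ± 0.09 (adjusted p = 0.00120).

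Rxra, Rxrg and Nr6a1 are shown together because theirs were the member windows with AAGGTCA. The motif was found in 3 of 52 windows of the 35 measured members with an entry in the RefSeq table (5.77%), against 4.72% of 32851 windows of all genes. AGGTCA alone was found in 11 of the 52 (21.2%), against 16.3% of all windows, so both shares were near those of all genes. All 3 genes fell in PGC-1alpha-mTg, and no test of the overlap was made. Each has 2 windows in the table, of which the one with the motif is printed, with AGGTCA or its reverse complement TGACCT, and TGACG, in capitals. The Rxra window (chr2:27709042-27709341, plus strand) holds AAGGTCA starting 49 bases before the start site, the Rxrg window (chr1:167618015-167618314, plus strand) 89 bases before, and the Nr6a1 window (chr2:38784466-38784765, minus strand) 91 bases before, on the reverse strand of the printed sequence. All coordinates are GRCm38.p6.
Rxra: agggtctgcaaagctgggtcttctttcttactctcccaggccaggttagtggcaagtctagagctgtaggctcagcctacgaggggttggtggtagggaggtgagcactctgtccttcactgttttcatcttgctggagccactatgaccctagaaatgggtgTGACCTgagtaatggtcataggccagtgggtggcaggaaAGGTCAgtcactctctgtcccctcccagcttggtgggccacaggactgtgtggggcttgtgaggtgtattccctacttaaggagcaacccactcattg
Rxrg: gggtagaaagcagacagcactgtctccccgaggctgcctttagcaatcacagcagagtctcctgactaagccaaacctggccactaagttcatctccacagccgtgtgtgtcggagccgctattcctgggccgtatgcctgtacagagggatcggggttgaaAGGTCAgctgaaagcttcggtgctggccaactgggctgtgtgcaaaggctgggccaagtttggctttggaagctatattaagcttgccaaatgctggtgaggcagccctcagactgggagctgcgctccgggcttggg
Nr6a1: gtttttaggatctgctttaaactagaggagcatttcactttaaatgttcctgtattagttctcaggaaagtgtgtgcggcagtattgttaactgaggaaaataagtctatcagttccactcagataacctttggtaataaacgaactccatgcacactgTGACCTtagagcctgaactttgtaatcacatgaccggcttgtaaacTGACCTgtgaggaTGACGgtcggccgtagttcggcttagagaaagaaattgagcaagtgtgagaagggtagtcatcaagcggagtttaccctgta

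The COUP transcription factors are orphan receptors that often repress, and compete with other receptors for their sites. Nr2f1 (probe set 10410766), COUP-TFI, stood at 5.08, 5.23, 5.30, 5.20 and 5.14 in PGC-1alpha-mTg, against 4.90, 5.05, 5.06, 4.97 and 5.01 in WT. The groups lay next to each other without overlap, and Nr2f1 rose by 0.19 ± 0.06 (adjusted p = 0.0104), on a dim probe set. All genes in the dimmest 40% had a median change of 0.04 there. In NCoR1-MKO Nr2f1 stood at 5.02, 4.98, 5.12, 5.19 and 5.08, against 5.12, 5.13, 4.91, 5.02 and 5.16 in CON, and the ranges overlapped (0.01 ± 0.06, adjusted p = 0.985). Nr2f2 (probe set 10564527), COUP-TFII, which is also needed in veins and muscle progenitors, stood at 7.34, 7.39, 7.29, 7.52 and 7.50 in PGC-1alpha-mTg, against 7.50, 7.63, 7.62, 7.49 and 7.48 in WT (−0.14 ± 0.05, adjusted p = 0.0647). The NCoR1-MKO arrays read 8.54, 8.58, 8.50, 8.57 and 8.43, against 8.43, 8.29, 8.46, 8.51 and 8.39 in the CON arrays (0.11 ± 0.05, adjusted p = 0.469). Groups overlapped in both cohorts and neither change passed, while their difference did, at −0.24 ± 0.08 (adjusted p = 0.0332). That difference was called in 10 of 20 fits that left out an array, at −0.27 to −0.21, and missed it under quantile normalization (adjusted p = 0.0546). Nr2f2 fell in PGC-1alpha-mTg in fits without PGC-1alpha-mTg array 4 (−0.16, adjusted p = 0.0317) or 5 (−0.16, adjusted p = 0.0319), with median centring (adjusted p = 0.0469) and without the dimmest 40% of genes (adjusted p = 0.0423).

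Nr2c2, the testicular receptor TR4, fell by 0.14 ± 0.05 in PGC-1alpha-mTg, with 8.17 ± 0.09 in PGC-1alpha-mTg and 8.32 ± 0.09 in WT (SD, n = 5 each; adjusted p = 0.0301 by limma). This was the smallest called change among the members. It missed the threshold without WT array 3, 4 or 5 or PGC-1alpha-mTg array 2 or 3, at −0.14 to −0.11. It also missed it in a fit to the 10 arrays of the comparison (adjusted p = 0.0938) and under quantile normalization over the 20 arrays, where the change was −0.09 (adjusted p = 0.122). Its relative Nr2c1, the brain receptor Nr2e1 and Nr2f6 did not pass in either model, with changes from −0.09 to 0.08.

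Steroid receptors wait in the cytoplasm or nucleus bound to heat shock chaperones until hormone arrives. Nr3c1 (probe set 10458569), the glucocorticoid receptor, stood at 8.82, 8.83, 8.90, 9.03 and 8.99 in PGC-1alpha-mTg, against 9.09, 9.12, 9.18, 9.33 and 9.30 in WT. The groups did not overlap, and it fell by 0.29 ± 0.06 (adjusted p = 0.000677). Its values were 9.44, 9.24, 9.40, 9.41 and 9.46 in NCoR1-MKO, against 9.39, 9.51, 9.46, 9.27 and 9.42 in CON, with NCoR1-MKO array 2 below the rest (−0.02 ± 0.06, adjusted p = 0.970). The difference between the models was −0.27 ± 0.08 (adjusted p = 0.0337), and was called in 9 of 20 fits that left out an array, at −0.31 to −0.23, and not with array weights (adjusted p = 0.0514).

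Esr1 (probe set 10367600), estrogen receptor alpha, stood at 8.89, 8.72, 8.75, 8.76 and 8.94 in PGC-1alpha-mTg, against 8.97, 9.06, 9.09, 9.02 and 8.85 in WT. The groups overlapped through PGC-1alpha-mTg arrays 1 and 5 and WT array 5. Esr1 fell by 0.18 ± 0.06 (adjusted p = 0.0261), but missed the threshold without WT array 2, 3 or 4 or PGC-1alpha-mTg array 2, 3 or 4, with an adjusted p up to 0.0766, or under quantile normalization (−0.13, adjusted p = 0.0692). In NCoR1-MKO it stood at 9.27, 9.17, 9.30, 9.42 and 9.19, against 9.28, 9.14, 9.31, 9.08 and 9.14 in CON (0.08 ± 0.06, adjusted p = 0.733). The difference of −0.26 ± 0.09 (adjusted p = 0.0407) was called in 7 of 20 fits that left out an array. Nr3c2, the mineralocorticoid receptor, did not pass, at 0.09 ± 0.06 in NCoR1-MKO and 0.11 ± 0.06 in PGC-1alpha-mTg, and neither did Esr2 or Pgr, which were among the dimmest genes.

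Glucocorticoid targets gave few calls, in PGC-1alpha-mTg 12.5% against 28.0% of all genes. Of 16 measured, 1 rose and 1 fell in PGC-1alpha-mTg: the metallothionein gene Mt1 rose by 0.87 ± 0.11, and Trim63, the ubiquitin ligase MuRF1 of muscle atrophy, fell by 0.64 ± 0.07. In NCoR1-MKO limma called none of the 16, with 1 at an unadjusted p under 0.05. Without PGC-1alpha-mTg array 5, 4 of the 16 fell, and without WT array 5, 2 rose. Of 7 chaperones, Bag1 rose by 0.30 ± 0.05 in PGC-1alpha-mTg and 3 fell: Stip1, the adaptor between HSP70 and HSP90, by 0.25 ± 0.05, the p23 cochaperone gene Ptges3 by 0.19 ± 0.04, and Hsp90aa1 by 0.21 ± 0.07. The fallen chaperones are 42.9% of the list, against 16.1% of all genes, and the risen 14.3%, against 11.9%. The Hsp90aa1 call (adjusted p = 0.0225) was lost without WT array 1 or PGC-1alpha-mTg array 1 or 3. In NCoR1-MKO none of the 7 was called by limma, with 2 at an unadjusted p under 0.05. Neither of the 2 measured genes of steroid handling nor the 2 of vitamin D handling passed in either model; of these 4, 1 steroid gene had an unadjusted p under 0.05 in each model.

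The NR4A receptors are ligand-independent immediate early genes, switched on within minutes to hours by exercise and adrenergic signals in muscle. Nr4a1 (probe set 10427035), also called Nur77, stood at 10.29, 10.49, 10.15, 10.42 and 10.43 in PGC-1alpha-mTg, against 10.70, 10.67, 10.97, 10.67 and 10.97 in WT. The groups did not overlap, and Nr4a1 fell by 0.44 ± 0.09 (adjusted p = 0.000406), 1.36-fold. The NCoR1-MKO arrays read 10.98, 11.22, 11.22, 11.48 and 11.37, against 11.18, 11.20, 11.39, 11.35 and 11.16 in the CON arrays, with the NCoR1-MKO arrays spread around the CON range (−0.003 ± 0.09, adjusted p = 0.995). The models differed by −0.44 ± 0.12 (adjusted p = 0.0167). Nr4a2 did not pass, at 0.03 ± 0.08 in NCoR1-MKO and 0.04 ± 0.08 in PGC-1alpha-mTg.

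Nr4a3 stood at 5.64, 5.97, 5.89, 6.12 and 6.06 in PGC-1alpha-mTg, against 5.53, 5.25, 5.58, 5.51 and 5.81 in WT, and at 5.71, 6.10, 5.64, 6.24 and 5.88 in NCoR1-MKO, against 5.51, 5.54, 5.54, 6.35 and 7.38 in CON. CON arrays 4 and 5 were far above the other 3, and this spread entered the error of both comparisons, which share it. The changes were 0.40 ± 0.25 in PGC-1alpha-mTg (adjusted p = 0.257) and −0.15 ± 0.25 in NCoR1-MKO (adjusted p = 0.929). Without CON array 5 the same change of 0.40 in PGC-1alpha-mTg passed (adjusted p = 0.0462). The 8 other immediate early genes measured did not fall with Nr4a1: 2 rose in PGC-1alpha-mTg (25%, against 11.9% of all genes), Egr1 by 0.63 ± 0.19 and Atf3 by 0.37 ± 0.10. Egr1 also rose in NCoR1-MKO, by 0.74 ± 0.19 (adjusted p = 0.0312), as the only call among the 8 (12.5%, against 1.31% of all genes). This call was lost without any of CON arrays 2, 3 and 5 and NCoR1-MKO arrays 1, 2 and 3.

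The window of Nr4a1 is printed because it holds TGACG most often among the windows shown (chr15:101266596-101266895, plus strand, GRCm38.p6). The motif occurs 4 times, each on the reverse strand as CGTCA in capitals, starting 233, 213, 69 and 40 bases before the start site. TGACG was present in 15 of 52 member windows (28.8%), those of Nr4a2 and Nr4a3 among them, against 20.8% of all windows.
Nr4a1: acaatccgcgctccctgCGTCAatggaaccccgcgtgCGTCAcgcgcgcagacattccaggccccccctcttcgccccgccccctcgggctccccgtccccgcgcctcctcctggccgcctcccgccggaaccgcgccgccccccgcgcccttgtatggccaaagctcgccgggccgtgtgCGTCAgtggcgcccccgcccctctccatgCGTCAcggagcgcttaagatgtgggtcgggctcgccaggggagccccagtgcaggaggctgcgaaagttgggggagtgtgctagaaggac

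Of the remaining orphans, Nr5a1 and Nr5a2, known from steroid-producing tissue and liver, and Nr0b1 and Nr0b2, atypical members that lack a DNA-binding domain, did not pass in either model. In all, 22 of the 39 members passed neither comparison nor the difference. Their changes ran from −0.15 to 0.21 in NCoR1-MKO, with a lowest adjusted p of 0.140, and from −0.08 to 0.40 in PGC-1alpha-mTg, with a lowest adjusted p of 0.0757. At 5 arrays a group, these values do not show that the receptors were equal between the groups.

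Several genes of the proteins that receptors recruit fell in PGC-1alpha-mTg. Of all genes outside the dimmest 40%, 25.7% fell and 16.4% rose there. Of 13 coactivators, 6 fell (46.2%, against 16.1% of all genes) and 1 rose (7.69%, against 11.9%) in PGC-1alpha-mTg, with a median of −0.21. The risen one was Ppargc1a itself, at 1.83 ± 0.07. The acetyltransferase gene Kat2b fell by 0.46 ± 0.05, the arginine methyltransferase Carm1 by 0.32 ± 0.05, the histone acetyltransferase Crebbp by 0.30 ± 0.05 and the p160 coactivator Ncoa2 by 0.23 ± 0.05. Of 7 corepressors measured, 4 fell (57.1%, against 16.1% of all genes) and none rose, with a median of −0.20. Tbl1xr1, a subunit of the NCoR complex, fell by 0.54 ± 0.06, Lcor by 0.35 ± 0.08 and the deacetylase Hdac3 by 0.20 ± 0.05. Tbl1x, the paralogue of Tbl1xr1, fell by 0.20 ± 0.06 (adjusted p = 0.0168) and was lost without WT array 1 or 3 or PGC-1alpha-mTg array 2 or 3.

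In NCoR1-MKO, 1 of the 13 coactivators was called (7.69% higher, against 1.31% of all genes). It was Ppargc1b, the relative of Ppargc1a, which rose by 0.51 ± 0.12 (adjusted p = 0.0193). The call was lost without CON array 3 or NCoR1-MKO array 3 or 4. None of the 7 corepressors was called by limma, with 2 at an unadjusted p under 0.05. Among 4 measured targets shared by ROR and REV-ERB receptors, 1 fell in PGC-1alpha-mTg (25%, against 16.1% of all genes). It was the clock gene Clock, which fell by 0.39 ± 0.08. In NCoR1-MKO none of the 4 was called by limma, although 3 had an unadjusted p under 0.05, and their median was 0.26. Arntl, the partner of Clock, stood at 0.67 ± 0.22 in NCoR1-MKO and −0.37 ± 0.22 in PGC-1alpha-mTg, neither of which passed. By the test of the difference, 2 of the 4 (50%, against 8.50% of all genes) had a lower effect in PGC-1alpha-mTg than in NCoR1-MKO. The lowest difference among the 4 was −1.04. Of the 5 receptors outside the list by its rule, 2 rose in PGC-1alpha-mTg (40%, against 11.9% of all genes). These were Esrrb, by 1.35 ± 0.08, and Esrra, by 0.66 ± 0.05. Of the same 5, Nr1d1 alone was called in NCoR1-MKO (20% higher, against 1.31% of all genes). It rose at an adjusted p of 0.0198 by limma, a call lost without CON array 1, 2 or 3 or NCoR1-MKO array 1 or 2.

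**Figure D3:**
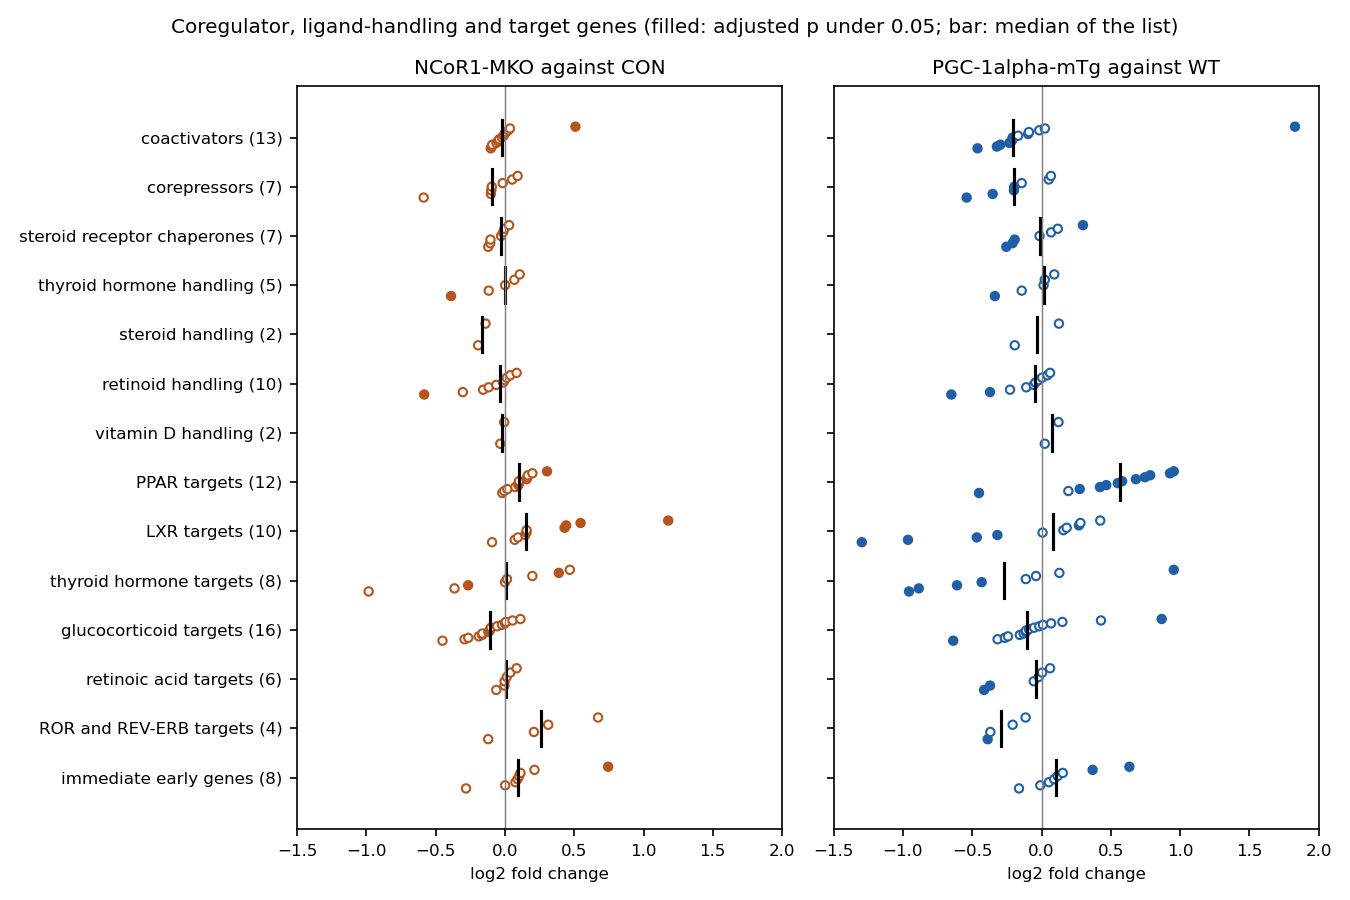
Log2 fold change (x axis) of each measured gene in 14 lists of receptor partners, ligand handling and target genes (rows), in NCoR1-MKO against CON and PGC-1alpha-mTg against WT, with the list median. In PGC-1alpha-mTg the PPAR targets other than Plin2 lie right of 0, with a list median of 0.57, and the LXR targets Srebf1 (−1.30) and Scd2 (−0.96) far left of it.

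Set against each other, the models differed for 13 of the 39 members, which is 33.3% against 15.2% of all genes. The effect of the transgene was the higher for Ppara, Pparg, Nr1h3 and Rxrb (10.3% against 6.66% of all genes) and the lower for Nr6a1, Nr4a1, Rora, Rxra, Rxrg, Nr3c1, Esr1, Nr2f2 and Ppard (23.1% against 8.50%). Rora, whose effects differed, fell in both. Of the 15 members called in PGC-1alpha-mTg, 12 kept their call in all 20 fits without 1 array and in the other settings in which they were tested. The others were Rarb, Esr1 and Nr2c2. Of the 13 differences, 9 kept theirs.

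Markers of muscle fibres and other cells also moved between the groups. Among all genes, 11.9% rose and 16.1% fell in PGC-1alpha-mTg, and 1.31% rose and 1.32% fell in NCoR1-MKO. Slow fibre genes were lower in both models: 5 of 7 fell in PGC-1alpha-mTg and 2 of 7 in NCoR1-MKO, with the Myl3 call in NCoR1-MKO lost without CON array 1 or 2 or NCoR1-MKO array 5, and 5 of 7 called without CON array 5. The mean of the 7 lay from −1.33 to −0.39 in PGC-1alpha-mTg and from −0.23 to 0.35 in WT, and from −1.58 to −0.26 in NCoR1-MKO and from −0.62 to 0.47 in CON, relative to the control means. Endothelial genes were higher: 7 of 8 rose in PGC-1alpha-mTg (mean of the list from 0.27 to 0.51, against −0.08 to 0.13 in WT). In NCoR1-MKO 1 of 8 rose, Cdh5, lost without CON array 3 or NCoR1-MKO array 1, while the mean of the list ran from 0.10 to 0.38, against −0.12 to 0.12 in CON.

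The mean of the fast fibre genes, the defining genes of this muscle, shifted by little in PGC-1alpha-mTg, from −0.08 to −0.04 against −0.02 to 0.02 in WT. Of the 10, Myh1 rose by 0.32, and Actn3 fell by 0.28, Tnni2 by 0.16 and Pvalb by 0.11. In PGC-1alpha-mTg 9 of the 10 changes were negative and 7 had an unadjusted p under 0.05 by limma. In NCoR1-MKO none of the 10 was called by limma or had an unadjusted p under 0.05. In PGC-1alpha-mTg all 4 satellite cell genes had negative changes and 2 fell, Myf5 and Calcr, with a list mean of −0.24 to −0.09, against −0.12 to 0.06 in WT. All 5 fibroblast genes were negative and 2 fell, Dcn and Pdgfra, with a mean of −0.32 to −0.11, against −0.15 to 0.13 in WT. Of the 3 Schwann cell genes, all negative, Pmp22 fell (mean −0.20 to −0.09, against −0.14 to 0.14 in WT). All 5 smooth muscle and pericyte genes were positive and Rgs5 rose (mean 0.09 to 0.21, against −0.06 to 0.09 in WT), while 1 of 7 macrophage genes rose, C1qa. When single arrays were left out, the calls of Calcr, Pdgfra, Pmp22 and C1qa were lost in 5, 6, 6 and 1 of the 20 fits. In NCoR1-MKO limma called none of the genes of these 5 lists, where 2 had an unadjusted p under 0.05. The red blood cell list had 1 measured gene, which passed in neither model and had no unadjusted p under 0.05. The part of these markers in the receptor changes was not tested.

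**Figure D4:**
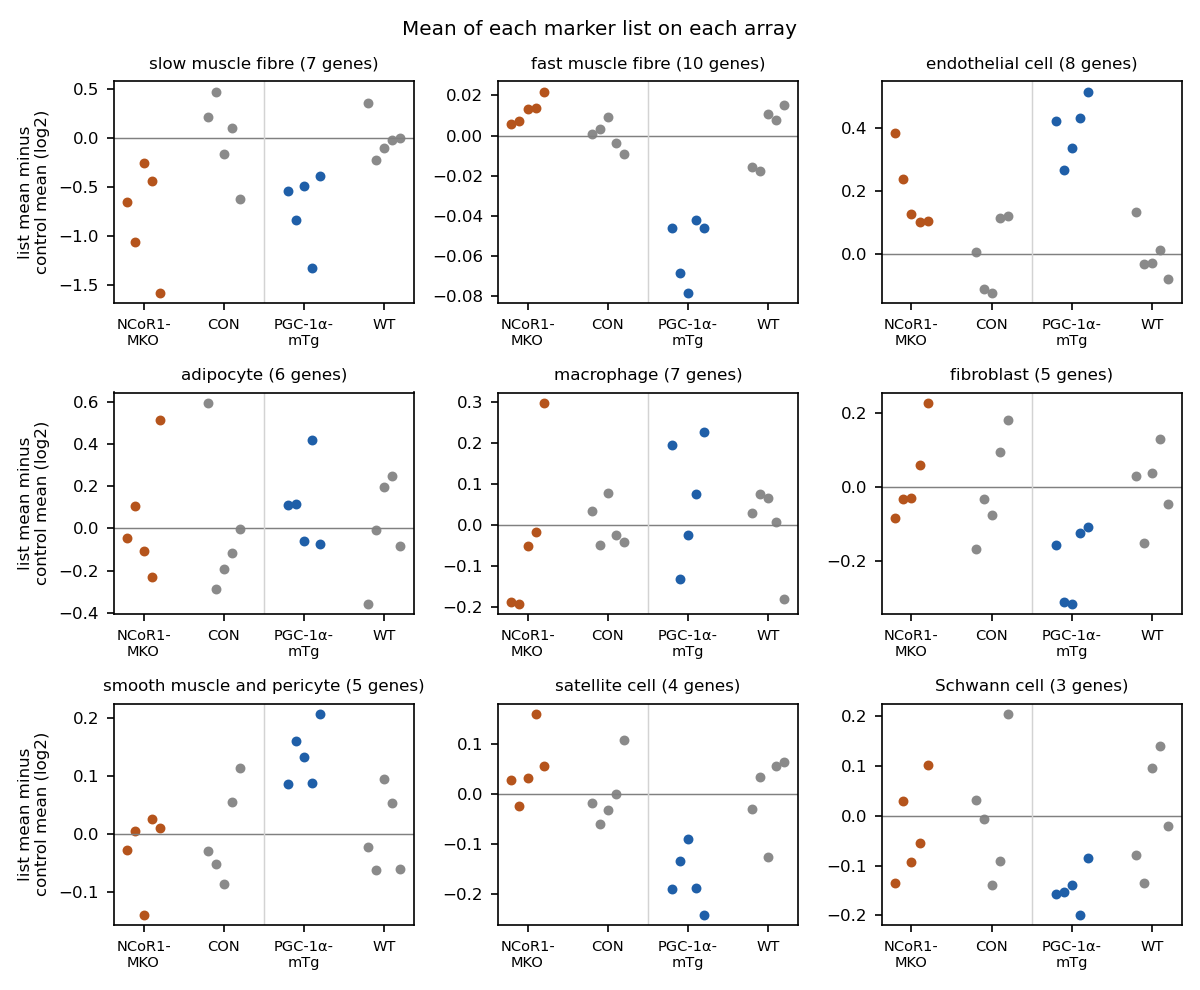
Mean log2 value of 9 marker lists on each array, minus the mean of the control group of its cohort (axis in log2 units), for NCoR1-MKO, CON, PGC-1alpha-mTg and WT. The endothelial list lies between 0.27 and 0.51 in PGC-1alpha-mTg, and the slow fibre list reaches −1.58 in NCoR1-MKO, in its array 5.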

How the data were processed

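Values were used as deposited, on the log2 scale. RMA, which corrects background, normalizes quantiles and summarises probes, and Partek are named, without versions, per the submitters' processing notes. The genome build and annotation used are not given in the sources used here. Quantiles differed by at most 0.063 within a cohort and by 0.169 to 0.228 between cohorts. Of 35556 probe sets, 21789 had 1 gene symbol in the platform table, 1621 several and 12146 none, and 21698 of the first matched RefSeq by Entrez number. The brightest probe set per gene over 20 arrays left 19938 genes. An array has no read depth, and its precision is limited by there being 5 arrays in a group.

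A single model of 4 group means, covering all 20 arrays, was fitted by limma (version 3.58.1, under R 4.3.3). Tests were two-sided with Benjamini-Hochberg adjustment over all genes, and 0.05 was the threshold. The fit was tested on simulated data. The members and the 25 gene lists (160 of 181 genes measured) were chosen with earlier results of these data known. Array values are printed for called members, at most 16 by size of change, which leaves out Nr2c2, and up to 4 called genes per list and comparison are named; Nr1h4, Rara, Nr4a3 and Arntl were added after their values were seen. Promoter sequences are from the RefSeq table of GRCm38.p6 (250 bases before to 50 after each start), in which 35 of the 39 measured members were found by symbol. Motif positions are counted from the start site. Alternatives were quantile normalization over 20 arrays, median centring, leaving out the dimmest 40% of genes, a fit to 10 arrays per comparison, array weights, a trended and robust eBayes, the mean of probe sets, the replicate number as a block, and leaving out each array. For a change within a cohort, leaving out an array of the other cohort alters only the error and p-value. Each member had 1 probe set, so the mean of probe sets keeps its change as it is.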

Additional observations from a re-analysis of the deposited data

Results flagged for a closer look

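In 4 of the 156 sets of 5 arrays (each member in each group), 1 array stood apart from the other 4 by Dixon's 95% criterion, which chance gives in about 1 of 20 sets. Rarg was highest in NCoR1-MKO array 5, at 7.935 against 7.742 to 7.793 in the others. Nr3c1 was lowest in NCoR1-MKO array 2, at 9.241 against 9.402 to 9.461. Ppard was lowest in WT array 4, at 8.65 against 8.769 to 8.818. Pgr was lowest in CON array 3, at 4.53 against 4.702 to 4.754.

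The effect in PGC-1alpha-mTg minus that in NCoR1-MKO passed the limma test of the difference for 13 members. It was positive for Ppara (0.8441), Pparg (0.4649), Nr1h3 (0.2834) and Rxrb (0.2541). It was negative for Nr6a1 (−0.4538), Nr4a1 (−0.4355), Rora (−0.3469), Rxra (−0.3202), Rxrg (−0.2773), Nr3c1 (−0.2688), Esr1 (−0.2628), Nr2f2 (−0.2415) and Ppard (−0.2223). The models belong to separate cohorts, each set against its own controls.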

How the results depend on the processing

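No member changed sign where it was called. In NCoR1-MKO against CON the count of 1 became 2 under quantile normalization over the 20 arrays, without the dimmest 40% of genes and with eBayes trend and robust, where Ppard joined Rora, and 2 with only the 10 arrays of the comparison, where Ppara did. It lay between 1 and 3 when single arrays were left out, with 3 (Rora, Ppard and Rara) without NCoR1-MKO array 5. The count in PGC-1alpha-mTg against WT, 15, lay between 13 and 16 under the other settings and between 12 and 18 without single arrays, lowest without WT array 4 or PGC-1alpha-mTg array 3. The count of differences, 13, lay between 11 and 14, and between 9 and 14 without single arrays, lowest without NCoR1-MKO array 1.

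With the replicate number as a block, 1 member was called in NCoR1-MKO, 13 in PGC-1alpha-mTg and 11 for the difference. In NCoR1-MKO that member was Ppara (adjusted p = 0.0462), while Rora had an adjusted p of 0.0645. No label says that a number marks a shared litter or day. The deviations of same-numbered arrays correlated at −0.132 to 0.04 for NCoR1-MKO with CON (0 of 5 pairs over 0.1) and at −0.232 to 0.196 for PGC-1alpha-mTg with WT (3 of 5 over 0.1), and 0 and 4 of 10 arrays correlated best with their own number, so the numbers were not taken as pairs. The cause of the changed calls was not tested. The signal over background of the probe sets is not known here, which leaves the 13 dim members uncertain.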
